A study of Mus musculus with 9 samples.

Results

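The transcriptome of Cxcl12-DsRed+ liver stroma was compared between postnatal day 10 (P10) and the fetal stage E15.5, named for the embryonic day, across every gene that the arrays name. The cells came from livers of C57BL/6 mice of the genotype Cxcl12DsRed/+, in which 1 allele of Cxcl12 drives the red fluorescent protein DsRed, and both stages share this allele, strain and tissue. Cells that carried DsRed and lacked CD45 and Ter119, surface markers of blood cells, were sorted, and RNA from them was hybridised to Affymetrix arrays, with 3 arrays for each stage. All 6 such arrays of 9 in the series were used, and 3 arrays of postnatal day 5 (P5) entered the fit and are set beside some values. Of 35556 probe sets, those with exactly 1 gene symbol were kept, and 19938 genes were each represented by the probe set with the highest mean. The labels call the arrays of a stage independent replicates without naming the animals or pools behind each. The p-values therefore reflect how these arrays scatter, which may be technical. Sorting rested on a reporter of 1 gene, so any liver cell that switched on Cxcl12 could enter at either stage.

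The fetal liver is a blood-forming organ in which hepatoblasts, the precursors of hepatocytes and bile duct cells, divide among blood precursors. Its stroma, largely hepatic stellate cells and their precursors, stores vitamin A, lays down matrix and secretes the chemokine Cxcl12 and the Kit ligand that retain and sustain blood stem cells. Around birth blood formation moves to the bone marrow, and hepatocytes switch on the enzymes of gluconeogenesis, nitrogen disposal, bile acid synthesis and detoxification.

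Values are log2 signals, so a difference of 1 is a 2-fold change, and differences are given as P10 minus E15.5 ± SE of the model, with 3 arrays per stage. A gene was called when limma's test gave an adjusted p (Benjamini-Hochberg over all genes) under 0.05. Within a stage the arrays had a Pearson r across all probe sets of at least 0.989, and across stages of at most 0.920 (probe sets are no independent replicates). The first principal component of the 6 arrays held 92.4% of the variance and parted the stages, and on the second, with 2.48%, P10 array 1 stood apart from P10 arrays 2 and 3. Array dates were not used here, and a batch that follows stage cannot be told apart from it.

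Of the 19938 genes, 38.7% were called: 3998 were higher at P10 (20.1%) and 3718 lower (18.6%). List counts below are to be read beside these shares, and a count near them does not set a list apart. The 3 arrays of one stage lay wholly above those of the other for 51.7% of genes, with P10 above in 27.9% and below in 23.8%. At least 2-fold differences were called for 1807 genes upward (9.06%) and 1636 downward (8.21%). Further out the rises outnumbered the decreases, with 622 against 539 genes at 4-fold (3.12% and 2.7%) and 248 against 136 at 8-fold (1.24% and 0.682%). At 16-fold they were 102 against 32 (0.512% and 0.16%), at 32-fold 41 against 7 (0.206% and 0.0351%) and at 64-fold 17 against 1 (0.0853% and 0.00502%). The median difference over all genes was 0.024 and the median SE 0.10. The 10 called genes nearest the threshold had adjusted p of 0.04974 to 0.04996 and differences of 0.19 to 1.00 in size, and the 10 just outside it 0.05024 to 0.05058 and 0.17 to 0.44. The balance of directions depended on scaling: 51.8% of called genes were higher in the deposited scale, and 65.6% (6085 higher, 3191 lower) after each array was centred on the median of all genes, which moved the median difference of all genes to 0.12.

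**Figure D1:**
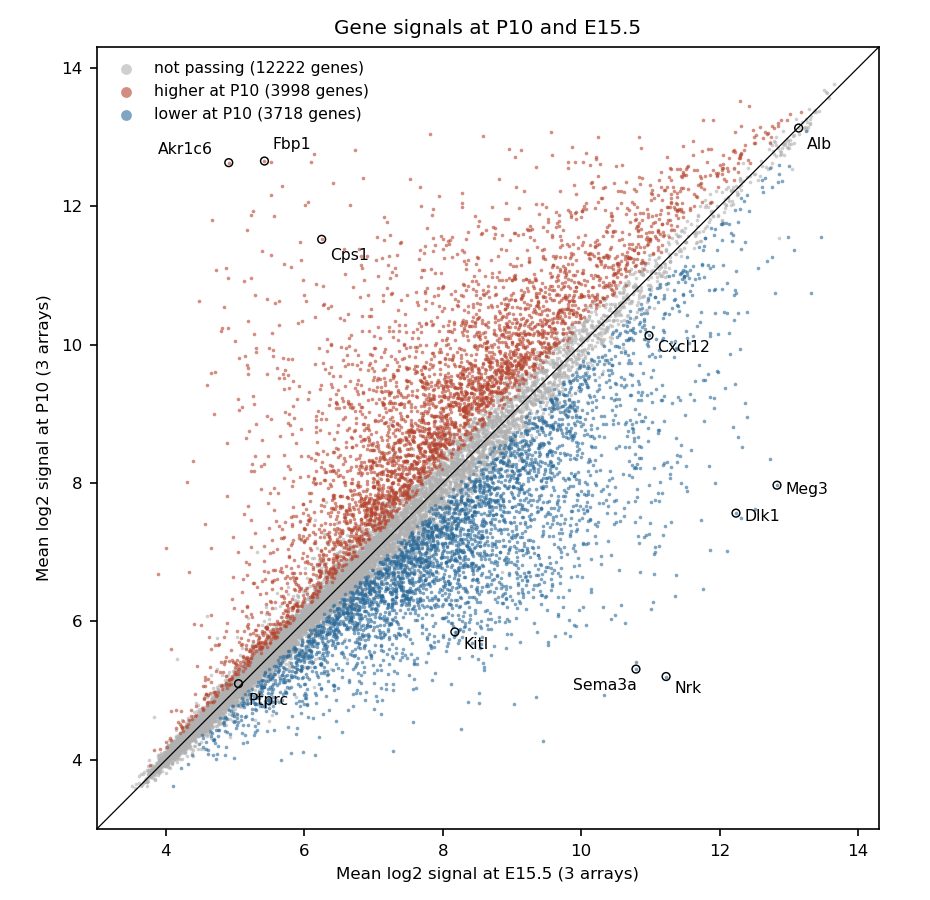
Mean log2 signal of each gene at E15.5 (x axis) and at P10 (y axis), over 3 arrays each, coloured by the limma call at an adjusted p under 0.05, with the line of equal signal. Most genes lie along the line, 3998 called genes lie above it and 3718 below, and Akr1c6 and Nrk mark the far ends of both sides.

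Genes of the brighter classes were called higher more often than those of the dimmer ones. Genes were ordered by their mean over both stages and cut into 10 classes of equal size. The same arrays gave the order and the calls, so a gene's own change shifts its class, and the trend is partly set by the sorting. In the dimmest class few genes were called either way (1.45% higher and 1.5% lower). The share called higher went from 1.45% in the dimmest class to 47.9% in the brightest, and the share called lower peaked at 32.2% in class 7 and was 20.4% in the brightest. Relative to each stage's own distribution, 71 genes moved from below percentile 30 at E15.5 to above percentile 70 at P10, and 25 moved the other way. Such moves were rare beside the 4707 genes that stayed above percentile 70 at both stages, of which 2768 were called.

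The labelled stroma was checked against its defining markers. The 10 stellate markers were bright at E15.5, with array means over the markers of 10.003 to 10.220, and fell to 7.78 to 8.01 at P10, where none lay under percentile 30 of all genes. Each of the 10 was called lower, from Pdgfra, the receptor for platelet-derived growth factor A (-3.69 ± 0.21), to Ngfr, a neurotrophin receptor (-0.68 ± 0.12). Lrat, the gene for the vitamin A storing enzyme, had log2 signals of 10.58, 10.46 and 10.99 on the E15.5 arrays and 7.34, 7.86 and 7.97 on the P10 arrays. Cxcl12 itself, the gene of the sort, read 10.95, 10.68 and 11.31 at E15.5 and 10.31, 10.08 and 10.01 at P10, a difference of -0.85 ± 0.17 (adjusted p = 0.00381), with no overlap of the stages.

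Most hepatocyte markers were bright at both stages. The 6 measured markers averaged 11.05 to 11.27 on the E15.5 arrays and 12.40 to 12.64 on the P10 arrays. These means exceeded those of the stellate markers at both stages, and by more at P10. The name stroma therefore follows the labels and does not describe the brightest markers. Alb, the albumin gene, read 13.10, 13.15 and 13.18 at E15.5 and 13.21, 13.03 and 13.15 at P10, within the top 1% of genes at both stages, and did not pass (-0.013 ± 0.060, adjusted p = 0.898). Among the other markers the transcription factor gene Hnf4a rose by 2.498 ± 0.20 and the urea cycle gene Cps1 by 5.27 ± 0.38. Cps1 averaged 6.25 at E15.5, under the median gene mean of 6.80, so it was not bright in the fetus. Ttr, Apoa1 and Trf changed by at most 0.19, so the rise of the mean came mainly from Cps1 and Hnf4a. Like Alb, these 3 genes lay within the top 1% at both stages, where the array may understate a change. Their small differences therefore do not show that their RNA was unchanged. In RNA from a sorted population, fewer cells of a type and less RNA per cell cannot be told apart, so a change in the share of hepatocytes or stellate cells and a change within them would look alike. The part of these markers in the results that follow was not tested.

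Markers of white blood cells were low, while 3 erythroid markers averaged 7.457 to 8.005 and 3 megakaryocyte markers 7.13 to 7.83 on the E15.5 arrays, above the median gene mean of 6.80. Ptprc, which encodes CD45, averaged 5.05 ± 0.073 (SD, n = 3) at E15.5 and 5.10 ± 0.086 at P10, at percentile 17.98 of all genes at E15.5. Of 29 macrophage and Kupffer cell genes 2 were higher and 3 lower (1 to 5 higher over the alternatives), and of 30 lymphocyte genes 1 was higher and none lower (9 higher after centring on all genes). Erythroid genes went both ways: 3 of 20 were higher and 12 lower (7 lower without P10 array 2). The anion exchanger gene Slc4a1 fell (-1.71 ± 0.25), against the heme synthesis gene Alas2 (1.12 ± 0.092). Platelet chemokine genes of megakaryocytes fell, Ppbp by 2.58 and Pf4 by 2.53. Of the 6 sinusoidal endothelial markers none was called, and in the wider list of 32 endothelial genes 1 rose and 6 fell (5 rose in a fit of the 6 arrays alone, and none without E15.5 array 1 or 3 or any 1 of the P10 arrays). The list's shares of 3.1% higher and 18.8% lower stand beside 20.1% and 18.6% of all genes. Mesothelial genes fell in 10 of 16 cases, including the lineage factor gene Wt1 (-2.21 ± 0.097), while the simple keratin genes Krt18 (1.82 ± 0.11) and Krt8 (1.47 ± 0.070) rose.

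**Figure D2:**
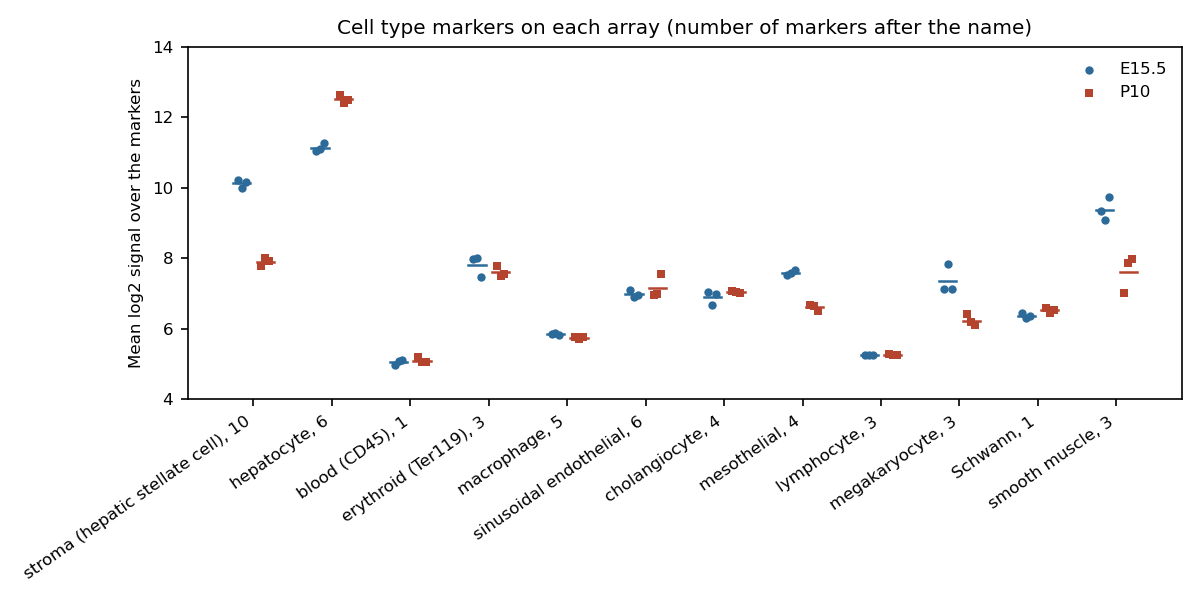
Mean log2 signal over the markers of each cell type (y axis) on each of 3 E15.5 and 3 P10 arrays, with horizontal lines at the stage means; the number of markers follows each name. The stellate points drop from 10.003 to 10.220 down to 7.78 to 8.01, the hepatocyte points sit above 11 at both stages, and the CD45 and lymphocyte points stay near 5.

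The 15 largest rises, taken among characterised genes with non-overlapping stages (predicted genes, uncharacterised clones, microRNA and snoRNA genes left out), were mostly those of liver enzyme genes that were near the bottom of the scale in the fetus. Akr1c6, a hydroxysteroid dehydrogenase of the aldo-keto reductase family, read 4.97, 4.85 and 4.91 on the E15.5 arrays and 12.57, 12.62 and 12.70 on the P10 arrays. That is a rise of 7.72 ± 0.058, or 211-fold (adjusted p = 9.88e-11). Fbp1, the fructose-1,6-bisphosphatase of gluconeogenesis, went from 5.35, 5.39 and 5.53 to 12.73, 12.58 and 12.65 (7.23 ± 0.068). Cyp2e1, the cytochrome P450 that oxidises ethanol and acetone, went from 5.42, 5.53 and 5.63 to 12.79, 12.60 and 12.52 (7.11 ± 0.084). In all 3 genes every P10 array lay far above every E15.5 array, which the choice of genes by non-overlap and size had set.

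Tdo2, the first enzyme of tryptophan breakdown, rose from 4.34 to 4.95 at E15.5 to 11.682 to 11.995 at P10 (7.14 ± 0.23). Its P5 mean was 9.82, and P10 exceeded P5 by 1.98 ± 0.23 (limma adjusted p = 0.00265), so part of its rise came after P5. Hao1, which oxidises glycolate (6.68 ± 0.26), Akr1c20, a relative of Akr1c6 (6.65 ± 0.081), Inmt, an indole methyltransferase (6.64 ± 0.11), Pck1, the rate-limiting enzyme of gluconeogenesis (6.62 ± 0.14), and Tat, which breaks down tyrosine (6.62 ± 0.12), followed. The urate oxidase gene Uox (6.53 ± 0.28), Cyp2b9 (6.36 ± 0.080), the glyoxylate aminotransferase gene Agxt (6.30 ± 0.12), Akr1c14 (6.23 ± 0.15), the glycine acyltransferase gene Glyat (6.15 ± 0.068) and the methionine adenosyltransferase gene Mat1a (6.07 ± 0.31) completed the first 15. All 15 had a P5 mean closer to P10 than to E15.5. At E15.5, 12 of them lay under percentile 30 of all genes (5.69), where the array may understate a change, and near-identical relatives such as the Akr1c and Cyp2 genes may share probe signal.

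**Figure D3:**
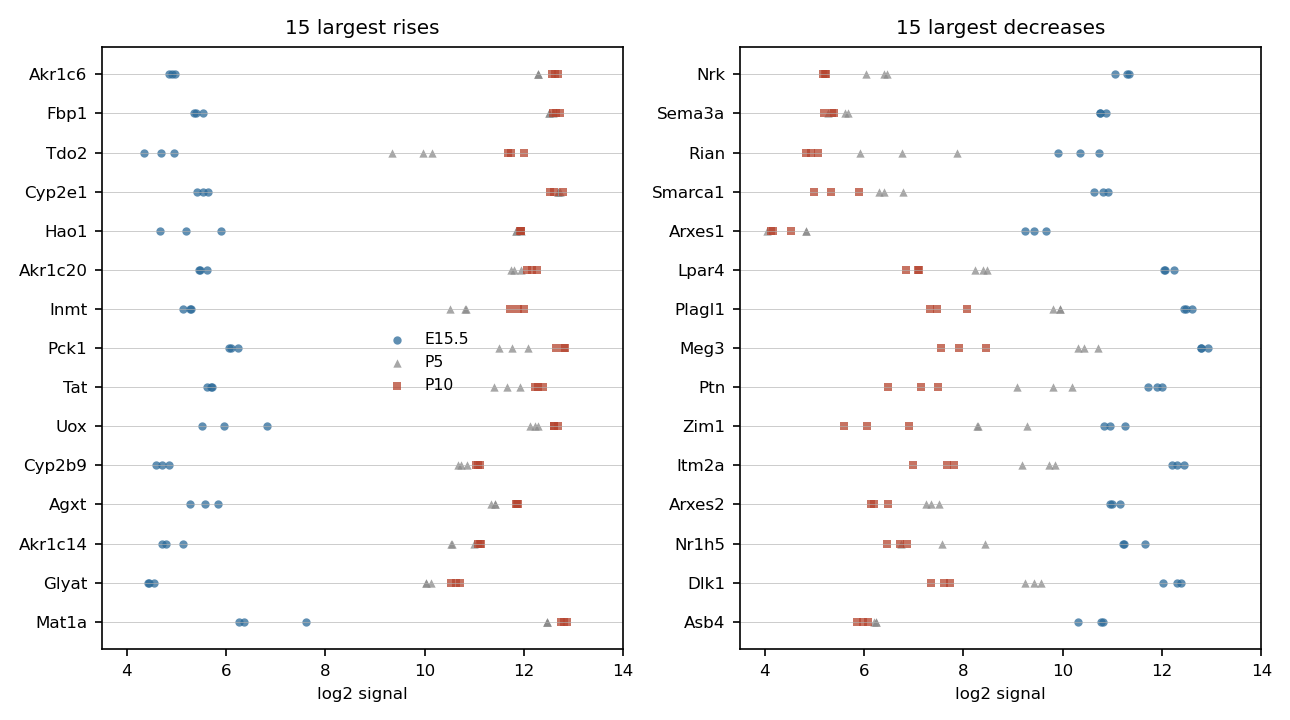
Log2 signal (x axis) of the 15 strongest rises and the 15 strongest decreases among characterised genes (predicted, clone, microRNA and snoRNA genes left out), on each of 3 arrays at E15.5 (circles), P5 (triangles) and P10 (squares). In every row the E15.5 and P10 points are far apart, which the choice of genes by non-overlap and size had set. The P5 points lie near P10 for most rises, Tdo2 apart, and for Sema3a, Arxes1 and Asb4, but between the stages for Meg3, Plagl1 and Dlk1.

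Whole metabolic pathways were higher at P10, and 2 of them without exception. In the list of urea cycle and amino acid catabolism, all 51 measured genes were called higher, 49 of them at least 2-fold, with a median of 3.04. Arg1, which releases urea, read 6.97, 7.14 and 7.35 at E15.5 and 11.87, 11.88 and 11.78 at P10. Bhmt, which remethylates homocysteine, rose by 3.51 ± 0.070 with the reported probe set, and its 3 probe sets ranged from 1.54 to 3.82. In the citric acid cycle list all 24 genes were higher, by a smaller median of 1.26, with the pyruvate carboxylase gene Pcx (3.10 ± 0.12) and the succinyl-CoA ligase gene Suclg1 (1.93 ± 0.068) among them. Gluconeogenesis and glycogen genes were higher in 17 of 22 cases and lower in 1, Pck2, the mitochondrial isoform (-0.44 ± 0.082). Glycolysis genes went both ways, with 6 higher and 10 lower of 21 (6 lower without E15.5 array 1 or array 2). The muscle-type pyruvate kinase gene Pkm (-1.35 ± 0.079, and -2.15 with its other probe set) and the glucose transporter gene Slc2a1 (-1.78 ± 0.14) fell, and Ldha rose (1.04 ± 0.092).

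Mitochondrial genes rose together, by modest amounts. In the respiratory chain and ATP synthase list 69 of 73 genes were higher and none lower, with a median of 0.79 (1 lower and a median of 0.45 after quantile normalisation). Sdhb, a subunit of succinate dehydrogenase, read 10.42, 10.38 and 10.22 at E15.5 and 12.06, 11.84 and 11.94 at P10. Of 77 mitochondrial ribosomal protein genes (Mrpl and Mrps symbols) 75 were higher and none lower, with a median of 1.03, led by Mrpl16 (2.12 ± 0.17). Among cytosolic ribosomal protein genes the counts were low, with 1 of 52 higher and 4 lower and a median of -0.069, which turned to 0.026 after centring on all genes and went to -0.18, with 22 lower, after quantile normalisation. The 1 member that was at least 2-fold different was Rpl12, at 8.79 to 8.84 on the E15.5 arrays and 6.781 to 7.002 on the P10 arrays.

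Fatty acid oxidation and ketogenesis genes were higher in 32 of 35 cases (median 2.07), among them Acadvl, the very-long-chain acyl-CoA dehydrogenase (2.39 ± 0.061). Peroxisome genes were higher in 27 of 31 cases and lower in none, with Scp2, the sterol carrier thiolase, going from 7.63 to 8.02 at E15.5 to 11.88 to 12.09 at P10. Lipid synthesis was mixed, with 17 genes higher and 5 lower of 33 and a median of 0.55 (0.29 after quantile normalisation). Scd2, a desaturase of membrane lipids in fetal tissue, fell from 10.92, 11.29 and 10.95 to 6.88, 6.93 and 7.13, 16.9-fold lower. In the cholesterol list 5 of 22 were higher and 6 lower (11 lower without both arrays that carried a Y-linked signal), with the synthesis genes Sqle (-2.87 ± 0.22), Msmo1 (-2.68 ± 0.47) and Cyp51 (-2.55 ± 0.14) lower and Insig2, which restrains the pathway, higher (1.78 ± 0.16). The cholesterol counts amount to 22.7% higher and 27.3% lower, against 20.1% and 18.6% of all genes.

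Detoxifying and bile acid genes rose widely. Of 42 drug- and steroid-metabolising P450 genes 31 were higher and 1 was lower (none lower without E15.5 array 1 or 3 or P10 array 3), and of 40 phase II enzymes, which attach sulfate, glucuronate or glutathione, 31 were higher and 2 lower. Sult1d1, a sulfotransferase, went from 6.55, 6.76 and 6.68 to 12.09, 11.95 and 12.03 (5.36 ± 0.069). Across all Gst symbols 16 of 19 were higher and none lower. In the bile acid list 21 of 30 were higher and 2 lower (1 lower without E15.5 array 1 or 2 or P10 array 1 or 2), and the transporter genes Abcg5 (3.89 ± 0.080) and Abcg8 (3.14 ± 0.10), whose products pump sterols into bile, rose together. Metallothionein and antioxidant genes were higher in 18 of 27 cases, including both subunits of glutamate-cysteine ligase, Gclc (3.61 ± 0.12) and Gclm (2.54 ± 0.10).

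Secreted liver proteins went both ways. In the list of hepatocyte secreted proteins 17 of 30 were higher and 3 lower (6 lower after quantile normalisation), with a median of 0.35, and several, like Alb, were already near the top of the scale at E15.5. Fetub (5.74 ± 0.11) and Hrg (5.78 ± 0.13), both cystatin-like plasma proteins, rose, as did Apoc3, an inhibitor of triglyceride clearance, from 6.75 to 7.03 up to 12.30 to 12.50. Complement (11 of 27 higher, 4 lower, or 2 lower without E15.5 array 3) and coagulation genes (9 of 26 higher, 4 lower, or 9 lower after quantile normalisation) went both ways: the lectin gene Mbl2 rose (4.19 ± 0.20), and Masp1 (-2.15 ± 0.13), Pros1, the gene of protein S (-2.09 ± 0.20), and Tfpi, the tissue factor pathway inhibitor (-2.96 ± 0.30), fell. Acute phase genes were higher in 11 of 24 cases, among them Serpina3n (4.96 ± 0.18), haptoglobin (Hp, 4.60 ± 0.25) and Fgl1 (5.93 ± 0.33), whose E15.5 arrays were scattered at 6.32, 5.66 and 7.24.

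Regulators of the hepatocyte programme also rose. Of 28 hepatocyte transcription factor genes 25 were higher and 1 was lower, with a median of 1.93. Nr0b2, the repressor SHP of bile acid synthesis, read 5.60, 5.55 and 5.57 at E15.5 and 10.43, 10.78 and 10.60 at P10, 32.7-fold higher. Ppara, the receptor that drives fatty acid oxidation, went from 7.14 to 7.26 up to 11.02 to 11.25. Cebpa (2.08 ± 0.066), Klf15 (2.54 ± 0.091), Prox1 (2.83 ± 0.16) and Onecut1 (2.58 ± 0.20) rose as well, and Nfib fell (-0.73 ± 0.12). Circadian clock and glucocorticoid genes were higher in 20 of 25 cases and lower in none, including the clock output factor gene Hlf (2.504 ± 0.086), Rora (2.27 ± 0.12) and Hsd11b1, which regenerates active glucocorticoid (3.21 ± 0.21). Times of collection were not used here, so time of day cannot be told apart from stage for the clock genes.

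The 15 largest decreases, taken by the same rule, were of another kind, led by a kinase, a guidance cue and a non-coding RNA. Nrk, a kinase gene of the X chromosome, read 11.29, 11.06 and 11.34 at E15.5, 6.30 on average at P5 and 5.17, 5.21 and 5.23 at P10, a decrease of 65.0-fold (-6.02 ± 0.12, adjusted p = 1.31e-08). Sema3a, a repulsive guidance cue for axons, went from 10.87, 10.76 and 10.75 to 5.38, 5.20 and 5.35, and its P5 mean of 5.52 did not differ from P10 beyond the spread (limma adjusted p = 0.368). Smarca1, a chromatin remodelling ATPase, fell from 10.63 to 10.92 down to 4.99 to 5.90, and Lpar4, a receptor for lysophosphatidic acid, from 12.05 to 12.24 down to 6.85 to 7.11. Arxes1 (-5.17 ± 0.23) and Arxes2 (-4.76 ± 0.11), a pair of neighbouring fat-cell genes, the heparin-binding growth factor gene Ptn (-4.83 ± 0.31), the membrane protein gene Itm2a (-4.82 ± 0.24) and Nr1h5, a nuclear receptor (-4.69 ± 0.37), were also in the first 15. The rule left out the snoRNA gene Snord14e, whose difference of -5.29 would rank among them. Of these 15 decreases 6 lay on the X chromosome and 6 others belonged to the imprinted gene list, against none of either among the 15 rises. At P10 5 of the 15 lay under percentile 30 of all genes.

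Imprinted genes, which are read from 1 parental copy and many of which govern fetal growth, fell in 26 of 36 cases and rose in 3 (median -1.72). Meg3, a long RNA read from the maternal copy, went from 12.78, 12.79 and 12.92 to 8.45, 7.54 and 7.92, and Dlk1, a Notch-like membrane protein gene of the same locus, from 12.30, 12.39 and 12.02 to 7.74, 7.36 and 7.60. Plagl1, a zinc finger regulator of the imprinted network, fell from 12.44 to 12.60 down to 7.33 to 8.06, and Igf2r, which clears IGF2, from 10.79 to 10.90 down to 6.54 to 6.87. Zim1 (-4.83 ± 0.37), Asb4 (-4.66 ± 0.13) and Mest (-4.39 ± 0.14) fell too. Igf2, the fetal growth factor, stayed bright at 12.83 to 12.88 and 12.48 to 12.66, a decrease of 0.27 ± 0.062 near the top of the scale. Zfp57, a zinc finger protein that guards imprints, fell from 9.21 to 9.77 down to 6.08 to 6.31.

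Hepatoblast and fetal liver genes fell in 16 of 20 cases and rose in 3. Afp, the fetal counterpart of albumin, read 13.33, 13.27 and 13.35 at E15.5, 12.88 on average at P5 and 10.86, 10.44 and 10.92 at P10, so most of its decrease came after P5 (P10 minus P5 of -2.14 ± 0.13). Gpc3, a heparan sulfate proteoglycan gene, fell from 12.22 to 12.40 down to 8.45 to 8.63, and Igf2bp1, a fetal RNA-binding protein, from 8.45 to 8.51 down to 5.85 to 6.06 (a difference of -2.505, and of -1.31 with its other probe set). Hhex, which specifies the liver bud, went the other way (2.18 ± 0.13). In the IGF list 7 of 22 were higher and 7 lower: the receptor gene Igf1r fell (-3.17 ± 0.12), and Igfbp2, a binding protein (4.51 ± 0.13), and Socs2, a brake on growth hormone signals (3.02 ± 0.14; 1.31 with its other probe set), rose.

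Stromal and matrix genes fell in most of the lists that hold them. In the hepatic stellate list 29 of 34 were lower and 1 was higher, and in the list of mesenchymal transcription factors 25 of 39 were lower and 3 higher (1 without E15.5 array 1), the lower ones including Tbx20 (-3.03 ± 0.098) and Gata6 (-1.99 ± 0.079). Among fibrillar collagens and collagen-processing genes 27 of 30 were lower and none higher, and among small proteoglycans and adhesive glycoproteins 26 of 39 were lower and 1 higher. Vcan, a large hyaluronan-binding proteoglycan, went from 10.15, 10.11 and 9.94 to 5.80, 5.99 and 6.05, 17.4-fold lower. Matrix proteases and their inhibitors fell in 19 of 29 cases, including the membrane protease genes Mmp16 (-3.81 ± 0.090) and Adam10 (-2.58 ± 0.086) and the protease inhibitor gene Reck (-2.83 ± 0.099). Adamts9 had 6 probe sets, which ranged from -4.60 to -1.35. Integrins, the matrix receptors, were lower in 14 of 22 cases and higher in 1, with Itgb1, the shared beta chain, down by 2.62.

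**Figure D4:**
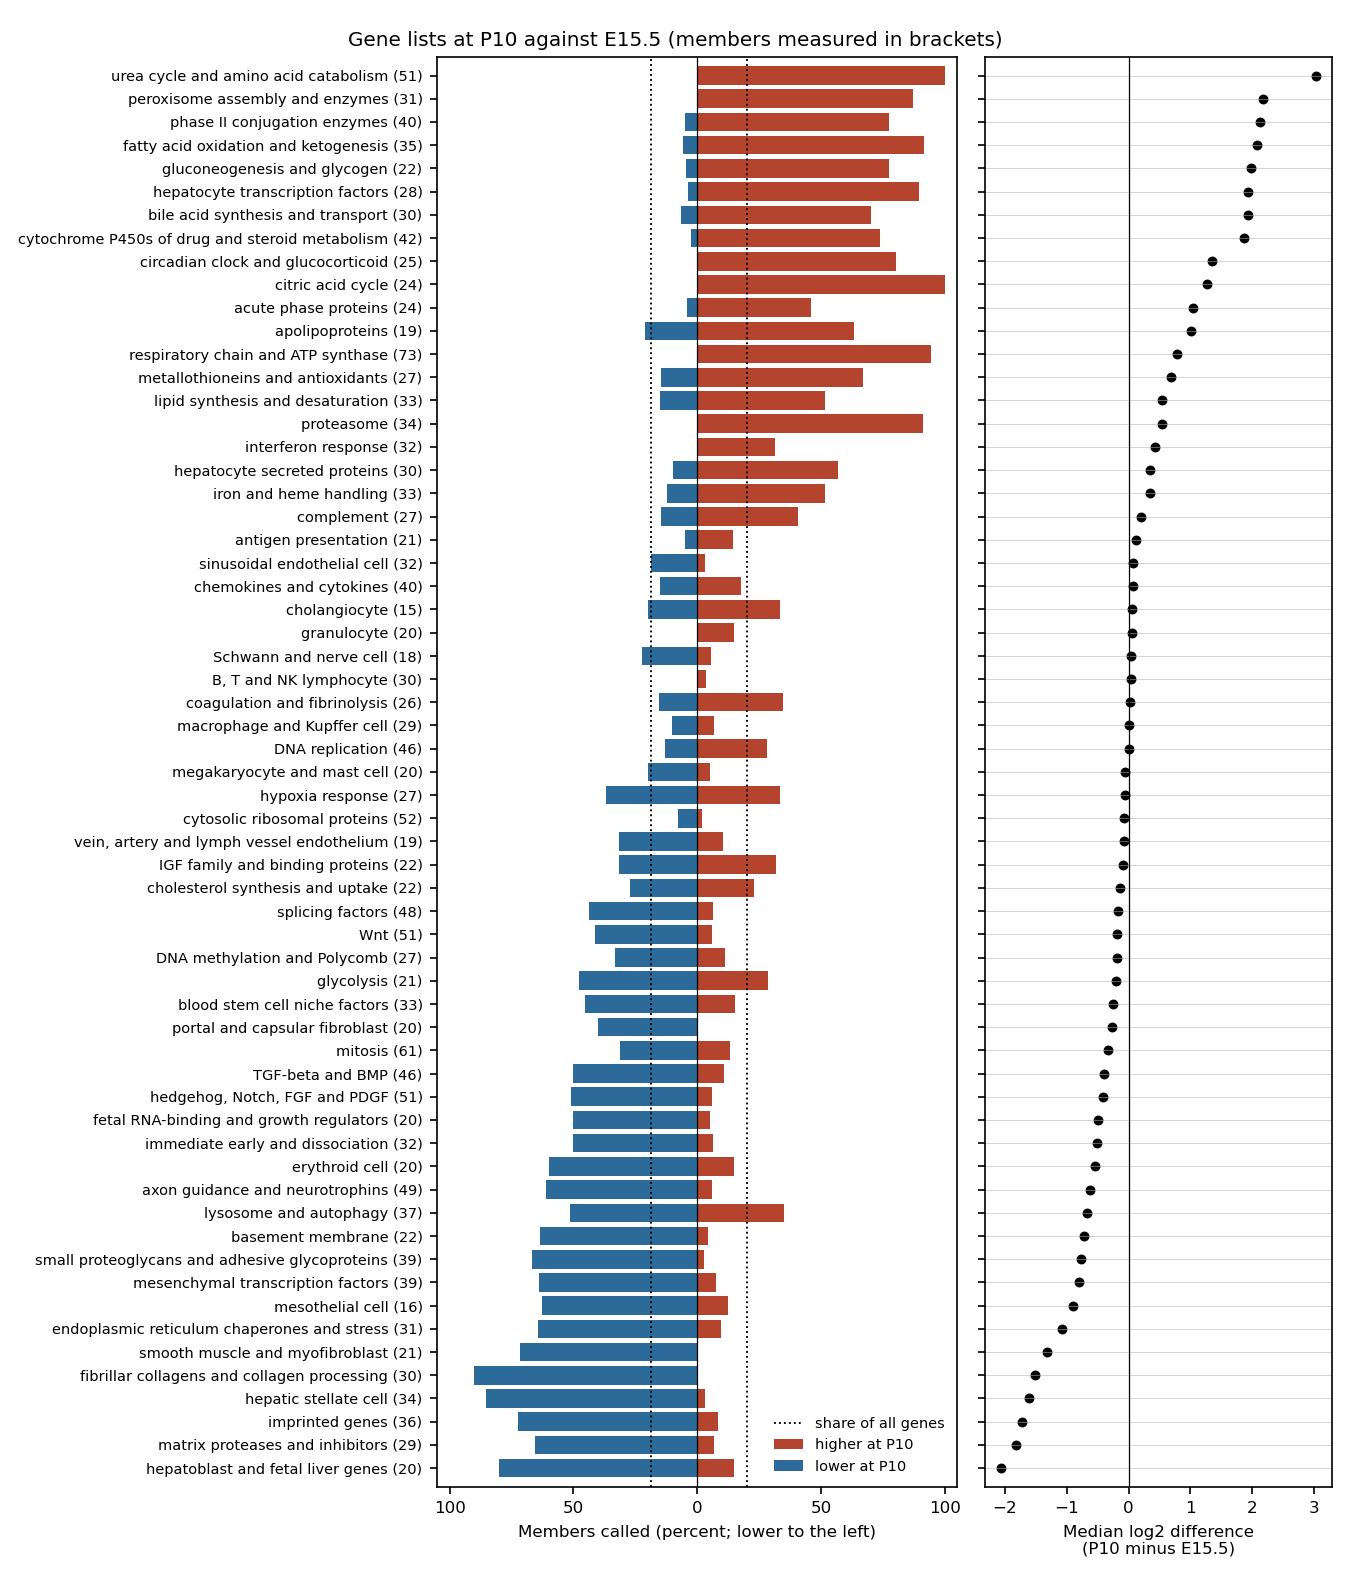
Share of each list's measured members called higher (right) and lower (left) at P10, in percent, and the median log2 difference of the list (right panel), for 61 lists ordered by that median; dotted lines mark the shares over all genes, 20.1% higher and 18.6% lower. Urea cycle and amino acid catabolism stands at the top with 51 of 51 members higher, and fetal liver, matrix protease, imprinted and stellate lists stand at the bottom.

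Genes for signals between cells fell more often than they rose. For blood stem cell niche factors 15 of 33 were lower and 5 higher (8 after centring on all genes). Kitl, the ligand of Kit on blood stem cells, read 8.25, 8.28 and 7.99 at E15.5 and 5.90, 6.14 and 5.50 at P10, and Csf1, the macrophage growth factor gene, fell (-2.73 ± 0.16), whereas Fgf1 rose (3.35 ± 0.14). Of 51 Wnt genes 21 were lower and 3 higher (8 after that centring): the inhibitor gene Sfrp2 went from 9.95, 10.07 and 10.05 to 6.24, 6.26 and 6.14, the enhancer Rspo3 fell (-3.32 ± 0.12), and the target Axin2 rose (0.89 ± 0.21). TGF-beta and BMP genes were lower in 23 of 46 cases and higher in 5 (3 without E15.5 array 3, 8 after that centring), with the co-receptor gene Tgfbr3 lower (-3.07 ± 0.10) and the activin subunit gene Inhbc, made by hepatocytes, higher (3.29 ± 0.11). In the hedgehog, Notch, FGF and PDGF list 26 of 51 were lower and 3 higher (5 after that centring), including Gli3 (-2.80 ± 0.094) and Notch2 (-2.07 ± 0.11). Axon guidance and neurotrophin genes were lower in 30 of 49 cases and higher in 3 (7 after that centring), with the receptor genes Robo2 (-3.69 ± 0.11) and Neo1 (-3.06 ± 0.070) beside Sema3a.

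Several basic cell functions also shifted. Endoplasmic reticulum chaperones, which fold secreted proteins, were lower in 20 of 31 cases and higher in 3 (median -1.07). Pdia6, a disulfide isomerase, read 11.44, 11.39 and 11.33 at E15.5 and 8.26, 8.40 and 8.55 at P10, and Canx, the lectin chaperone calnexin, fell (-1.74 ± 0.075). The proteasome list went up, with 31 of 34 higher and none lower, by a median of 0.54, and with 14 higher and a median of 0.19 after quantile normalisation. Splicing factor genes were lower in 21 of 48 cases and higher in 3, and in 36 cases after quantile normalisation. The epithelial splicing factor gene Esrp2 rose from 6.40, 6.85 and 6.66 to 9.21, 9.32 and 9.05. Lysosome and autophagy genes were split, with 13 higher and 19 lower of 37, such as the autophagy gene Atg5 (1.91 ± 0.10) against the protease gene Ctsd (-1.98 ± 0.093).

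Proliferation genes did not move 1 way. Of 46 DNA replication genes 13 were higher and 6 lower, with a median of 0.0052, and 7 higher and 13 lower after quantile normalisation (7 higher also without both arrays that carried a Y-linked signal). In the deposited scale that is 28.3% higher and 13% lower, against 20.1% and 18.6% of all genes. Of 61 mitosis genes 8 were higher and 19 lower, with 12 lower without E15.5 array 1 or array 3, and 4 higher without E15.5 array 2 or 3 or P10 array 1. Mki67, the proliferation marker, read 9.95, 9.82 and 9.94 at E15.5 and 8.86, 8.65 and 8.53 at P10 (-1.22 ± 0.22), still above the median of all genes. The kinesin gene Kif15 fell (-1.63 ± 0.18) and Spc25, a kinetochore subunit, rose (1.43 ± 0.13).

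Interferon-related genes rose in part. In the interferon list 10 of 32 were higher and none lower, and 16 were higher and 2 lower in a fit of the 6 arrays alone. Iigp1, an immunity GTPase, read 8.09, 7.62 and 7.59 at E15.5 and 11.54, 11.74 and 11.78 at P10, and the immunoproteasome genes Psmb8 (3.75 ± 0.33) and Psmb9 (3.68 ± 0.37) rose, while 17 of 21 antigen presentation genes did not pass. Genes of the immediate early and dissociation list, many induced by tissue handling, were lower in 16 of 32 cases and higher in 2, including Klf6 (-2.06 ± 0.17) and Egr2 (-1.90 ± 0.14). Their part in other decreases was not tested.

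Small nucleolar RNA genes, whose products guide chemical changes of ribosomal RNA, had the highest share of lower members among the 32 symbol families. Of 51 measured Snora and Snord genes 41 were lower, 36 of them at least 2-fold, and 1 was higher, with a median of -1.67. Snord14e read 11.56, 11.67 and 12.05 at E15.5 and 6.97, 5.24 and 7.19 at P10 (-5.29 ± 0.48), and Snora31 fell from 10.11 to 10.67 down to 5.95 to 6.70. Snora20 went against the rest, from 5.40, 5.26 and 6.46 up to 9.41, 9.61 and 9.06. Most such genes lie inside introns of other genes, and whether a probe set read the small RNA or the host transcript was not tested.

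MicroRNA genes were mostly dim and few were called: of 296, 3 were higher and 33 lower. Their shares of 1.0% and 11.1% lie under those of all genes, 20.1% and 18.6%. The arrays read precursor transcripts of a locus and not which mature strand is made. The mature strands of the 8 called genes with the smallest adjusted p among those with a sequence from RefSeq (34 of the 36 called) are shown to identify them, with bases 2 to 8, the seed that pairs with targets, in capitals. The first 3 belong to the 2 genes that rose, Mir135a-1 and Mir375, and the others to the 6 genes that fell. For Mir375 only the 5p strand is shown, since the sequences used held no 3p strand. No 2 of these strands share a seed.
mmu-miR-135a-5p: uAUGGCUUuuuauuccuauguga
mmu-miR-135a-1-3p: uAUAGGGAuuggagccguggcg
mmu-miR-375-5p: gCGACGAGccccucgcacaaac
mmu-miR-677-5p: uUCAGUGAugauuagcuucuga
mmu-miR-677-3p: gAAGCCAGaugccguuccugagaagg
mmu-miR-186-5p: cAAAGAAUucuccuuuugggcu
mmu-miR-186-3p: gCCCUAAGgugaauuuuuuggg
mmu-miR-103-2-5p: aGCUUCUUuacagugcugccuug
mmu-miR-103-3p: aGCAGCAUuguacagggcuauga
mmu-miR-377-5p: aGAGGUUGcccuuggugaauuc
mmu-miR-377-3p: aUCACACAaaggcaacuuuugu
mmu-miR-127-5p: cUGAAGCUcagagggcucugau
mmu-miR-127-3p: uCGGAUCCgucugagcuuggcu
mmu-miR-665-5p: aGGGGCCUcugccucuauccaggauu
mmu-miR-665-3p: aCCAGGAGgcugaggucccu

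Mir135a-1 rose from 4.94, 5.29 and 4.67 to 7.28, 6.88 and 7.48 (2.25 ± 0.28, adjusted p = 0.000261), and Mir375 from 6.73 to 6.98 up to 7.60 to 7.76. Mir677 fell from 5.94, 6.70 and 6.30 to 4.86, 4.99 and 4.94, and Mir103-2 from 5.67 to 6.10 down to 4.44 to 4.95. Mir186 (-0.42 ± 0.063) changed little and within the dim part of the scale. Mir377 (-0.71 ± 0.12), Mir127 (-0.40 ± 0.066) and Mir665 (-0.73 ± 0.12) lie between Dlk1 and Dio3, the imprinted locus of Meg3 and Rian. Of 40 microRNA genes in that interval 10 were lower (25%) and none higher, and of 256 elsewhere 23 were lower (9.0%) and 3 higher. Of the 7 other measured genes from Dlk1 to Dio3, both included, 6 were lower, with a median of -4.08. The 6 include the snoRNA genes DQ267102 (-4.08 ± 0.38) and DQ267101 (-1.92 ± 0.29). The long RNA genes, Dlk1 and these snoRNA genes moved more on this scale than the microRNA genes of the locus. Rian itself read 9.91, 10.35 and 10.73 at E15.5 and 4.93, 5.07 and 4.83 at P10.

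X-linked genes were strongly lower at P10 more often than other genes. Of 739 measured genes of the X chromosome 47 were called at least 4-fold lower (6.36%) and 6 at least 4-fold higher (0.812%). On the autosomes 2.576% of 19103 genes were at least 4-fold lower and 3.225% at least 4-fold higher, and over all genes 2.7% and 3.12%. No autosome had as low a share of 4-fold rises or as high a share of 4-fold decreases as the X chromosome. Among protein-coding genes with a mean over both stages above percentile 30, the median of 395 X-linked genes exceeded that of 12915 autosomal genes by 0.28, 0.27 and 0.31 on the E15.5 arrays. The same difference of X minus autosomes was -0.35, -0.20 and -0.20 for the P10 arrays, and -0.28, -0.21 and -0.22 for the P5 arrays. The stages did not overlap in this measure, and no test was made because it was chosen after seeing the values.

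The 22 X-linked genes that fell at least 8-fold, of 136 such genes in all (0.682% of all genes), included, beside Nrk and Smarca1, the kinase gene Rps6ka6 (-4.44 ± 0.062), the calpain relative Capn6 (-4.27 ± 0.13), Gpc3 (-3.80 ± 0.072), the actin crosslinker gene Flna (-3.46 ± 0.11) and the guanine exchange factor gene Dock11 (-3.55 ± 0.13); these 5 were picked after their values were seen. Sex signals were spread over both stages. The Y-linked gene Eif2s3y was high on 1 array of each stage, at 7.94 for E15.5 array 3 and 8.97 for P10 array 1, whereas the remaining 4 read 3.96 to 4.05. Xist, the RNA that silences an X chromosome in female cells, read 10.51, 10.64 and 10.16 at E15.5 and 5.09, 7.81 and 7.98 at P10 (-3.48 ± 1.01, adjusted p = 0.0253). Its call was lost without any 1 of the E15.5 arrays and without P10 array 1 (limma adjusted p of 0.0578 to 0.0751). E15.5 array 3 carried the Y-linked signal together with a high Xist signal, whereas P10 array 1 carried it with the lowest Xist of both stages. The part of sex in the Xist difference was not tested. Without both arrays with a Y-linked signal, X-linked medians on the other arrays were above the autosomal ones by 0.28 and 0.27 at E15.5 and differed from them by -0.20 and -0.20 at P10.

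**Figure D5:**
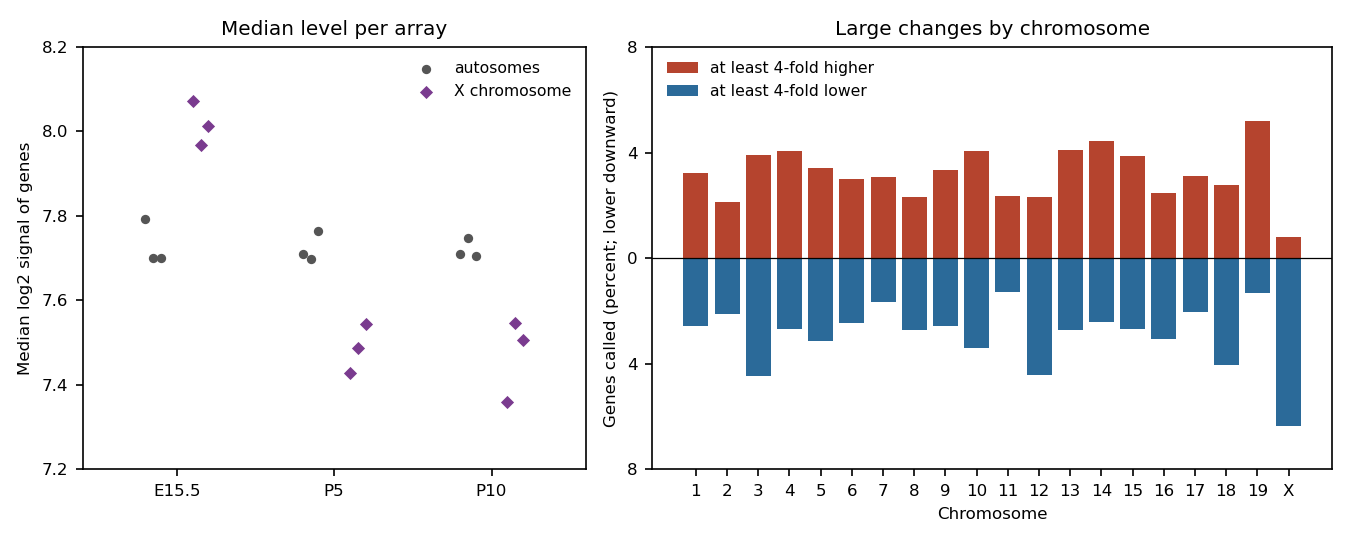
Left, median log2 signal (y axis) of X-linked (diamonds) and autosomal (circles) protein-coding genes on each of 9 arrays by stage; right, percent of genes of each chromosome (x axis) called at least 4-fold higher (up) and at least 4-fold lower (down) at P10. The X medians exceed the autosomal ones on all 3 E15.5 arrays and lie below them on all 6 postnatal arrays, and the X bars stand at 6.36% lower and 0.812% higher.

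Promoter letters differed between the sets of genes read here. Genes that rose were read at 16-fold and 4-fold, and genes that fell at 4-fold only, so the far ends were not compared at like thresholds. RefSeq promoters of GRCm38.p6 were found for 15614 of the genes, and the 250 bases before the start were read for CpG, a C followed by a G, which vertebrate genomes keep mainly in promoters of broadly used genes. Of 82 promoters of genes at least 16-fold higher, 53 (64.6%) held at most 3 CpG, with a median of 2, against 25.1% and a median of 11 over all promoters. At the 4-fold threshold the share was 27.9% in 506 promoters of genes that rose, near the 25.1% of all, with a median of 8.5. It was 12% in 408 promoters of genes that fell, with a median of 14. CCAAT boxes (CCAAT, either strand) were present in 48.8% of the 16-fold set, 44.1% of the 4-fold higher set, 33.3% of the 4-fold lower set and 35.5% of all. The letters TATAAA were found on either strand in 17.1%, 13%, 12.5% and 11.2% of these sets, and GTTAAT, part of the site of HNF1, in 9.8%, 6.9%, 3.9% and 5.6%. A match is a description of the letters and no evidence of binding.

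Windows low in CpG are shown for 3 genes that rose, Akr1c6 (chr13:4434093-4434342, plus strand), Cyp2e1 (chr7:140763569-140763818, plus strand) and Tat (chr8:109990186-109990435, plus strand). Windows rich in CpG are shown for 3 that fell, Nrk (chrX:138914180-138914429, plus strand), Plagl1 (chr10:13090582-13090831, plus strand) and Lrat (chr3:82903975-82904224, minus strand). These last 3 hold more CpG than the other largest decreases named above and do not stand for them. Sequences run 5′ to 3′ and end at the base before the start, and capitals mark each CpG.
Akr1c6: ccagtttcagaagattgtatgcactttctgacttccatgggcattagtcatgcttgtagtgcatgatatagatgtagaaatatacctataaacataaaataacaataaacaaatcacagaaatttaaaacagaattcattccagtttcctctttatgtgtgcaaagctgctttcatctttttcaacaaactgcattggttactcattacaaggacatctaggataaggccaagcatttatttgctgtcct
Cyp2e1: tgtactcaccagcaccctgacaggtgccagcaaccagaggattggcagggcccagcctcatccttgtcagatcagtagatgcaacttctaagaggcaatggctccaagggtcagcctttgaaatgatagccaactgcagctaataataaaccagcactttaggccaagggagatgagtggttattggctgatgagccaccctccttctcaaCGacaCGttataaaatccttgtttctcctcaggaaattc
Tat: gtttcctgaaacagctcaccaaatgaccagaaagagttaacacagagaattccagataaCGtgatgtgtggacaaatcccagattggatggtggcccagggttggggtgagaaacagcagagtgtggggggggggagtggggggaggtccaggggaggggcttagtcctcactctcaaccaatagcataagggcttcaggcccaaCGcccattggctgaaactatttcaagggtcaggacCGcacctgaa
Nrk: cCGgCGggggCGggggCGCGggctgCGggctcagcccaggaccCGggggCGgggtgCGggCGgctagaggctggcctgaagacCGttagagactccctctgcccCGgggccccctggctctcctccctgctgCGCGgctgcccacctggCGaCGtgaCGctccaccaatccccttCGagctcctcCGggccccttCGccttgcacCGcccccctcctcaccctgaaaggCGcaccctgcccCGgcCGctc
Plagl1: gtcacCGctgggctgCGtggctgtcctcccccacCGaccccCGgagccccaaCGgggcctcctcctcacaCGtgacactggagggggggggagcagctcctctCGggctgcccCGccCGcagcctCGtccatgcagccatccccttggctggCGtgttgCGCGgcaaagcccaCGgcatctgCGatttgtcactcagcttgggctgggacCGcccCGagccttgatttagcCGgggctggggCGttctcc
Lrat: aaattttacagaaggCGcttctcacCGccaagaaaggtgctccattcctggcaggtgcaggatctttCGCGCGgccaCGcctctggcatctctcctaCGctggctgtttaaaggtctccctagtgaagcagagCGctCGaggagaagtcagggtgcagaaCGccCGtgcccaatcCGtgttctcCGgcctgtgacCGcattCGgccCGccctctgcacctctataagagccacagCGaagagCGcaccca

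The windows of Akr1c6, Cyp2e1 and Tat hold 0, 2 and 3 CpG, and those of Nrk, Plagl1 and Lrat 24, 19 and 18. The split is not complete, since the window of Sema3a, which fell 44.6-fold, holds 2 CpG, and that of Fbp1, which rose 150-fold, holds 5. Nrk and Plagl1 hold the most CpG among the largest decreases named above, and Lrat is not one of those. Of the others, Rian, Lpar4, Nr1h5, Asb4 and Ptn hold 0, 3, 3, 4 and 5. Smarca1, Itm2a, Dlk1 and Meg3 hold 6, 6, 8 and 10, still under the median of 11 over all promoters. Arxes1, Arxes2 and Zim1 hold 14 each. The 3 windows shown for genes that fell therefore do not stand for the largest decreases.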

How the data were processed

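Total RNA of sorted liver stromal cells was labelled as cRNA and hybridised to Affymetrix mouse gene arrays, per the labels' protocols. The authors deposited log2 values made by RMA with Affymetrix Expression Console and Transcriptome Analysis Console 2.0, per the submitters' processing notes; a genome build was not given in the sources used here. RMA corrects background, equalises the distribution of probe signals across arrays and sums probes, so shifts shared by most genes are reduced. The deposited medians over all probe sets still differed by stage, at 6.437 to 6.449 on the E15.5 arrays and 6.225 to 6.264 on the P10 arrays. Probe sets were named through the platform annotation (21789 of 35556 carried 1 symbol), 1 per gene by the highest mean over 9 arrays. Stages were compared with limma 3.58.1 in R 4.3.3 (lmFit and eBayes, stage as the only term, 6 residual and 2.224 prior degrees of freedom), after tests on simulated data. Lists of genes were counted, not tested. Genes named are the 15 largest changes per direction among characterised genes (predicted genes, clones, microRNA and snoRNA genes left out) with non-overlapping stages and a higher stage above the median of all genes, up to 4 called members of a list by adjusted p and up to 2 against its majority, 2 per family and direction, 8 microRNA genes and a fixed set. The members, lists and tests were chosen with earlier results of these data known. The number of arrays limits the precision. Same-numbered arrays of the stages had residual correlations of -0.065, -0.079 and 0.032, so numbers were not taken as pairs. Alternatives covered scaling, filters, probe set choice, the model and each array left out. Promoters and mature microRNAs came from RefSeq tables of GRCm38.p6.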

Additional observations from a re-analysis of the deposited data

Results flagged for a closer look

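Probe sets outside the gene table also differed between the stages. Of 12146 probe sets that the annotation does not list, limma called 1047 higher and 2490 lower at P10 at an adjusted p under 0.05 over all 35556 probe sets. Of 1621 probe sets with several symbols 210 were higher and 204 lower. Over all probe sets 15.2% were higher and 18.8% lower, so lower calls outnumbered higher ones mainly among the unlisted probe sets, for which no gene is named here.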

How the results depend on the processing

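The counts of genes higher and lower stayed within 1.5 times of 3998 and 3718 under every alternative run except 2. Centring arrays on the median of all genes gave 6085 higher, and a test against a log2 difference of 0.5 (limma's treat) gave 1976 higher and 1709 lower. The share of called genes that were higher was 59.5% after centring on ribosomal protein genes and 49.5% after quantile normalisation. Leaving out 1 array at a time gave 3448 to 3659 higher and 3220 to 3439 lower genes. A replicate block gave 3852 higher and 3588 lower, but the shared numbers did not pair the arrays. The Xist call was lost with that block (adjusted p = 0.0566), without E15.5 array 1 (0.0698), 2 (0.0709) or 3 (0.0578), without P10 array 1 (0.0751) and without both arrays with a Y-linked signal (limma adjusted p = 0.132). Igf2 did not pass after centring on ribosomal protein genes (-0.19, limma adjusted p = 0.129). Alb, which did not pass, turned to 0.082 after centring on all genes and to 0.066 on ribosomal protein genes, and ranged from -0.053 to 0.035 with 1 array left out. Mir186, Mir377 and Mir103-2 lie so low that they did not pass with a floor at percentile 30. For reversals and lost calls the cause was not tested. Counts of small lists moved with single arrays, and genes near the floor or the top of the scale may have their changes understated.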

Other observations

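Some neighbouring protein-coding genes changed together, each called and at least 2-fold different, in the gene order of RefSeq's GRCm38.p6. On chromosome 19 a run of 7 genes was higher by 1.15 to 5.43 on the log2 scale, with 6 cytochrome P450 genes (Cyp2c67, Cyp2c68, Cyp2c37, Cyp2c54, Cyp2c50 and Cyp2c70) followed by Pdlim1, which encodes a cytoskeletal LIM protein. On chromosome 3 all 6 genes of a run of glutathione transferases, from Gstm7 to Gstm4, were higher by 1.03 to 3.32. Members of such tandem families are similar in sequence and may share probe signal, so they are not independent.

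Other runs were lower at P10. On chromosome 6 the run Col1a2, Casd1, Sgce, Peg10 and Ppp1r9a, which holds a collagen gene beside imprinted genes, differed by -3.61 to -1.66. On the X chromosome Armcx4, Armcx1, Armcx6, Armcx3 and Armcx2, relatives with armadillo repeats, differed by -2.75 to -1.06. These runs were picked after their values were seen, and no test of their length was made.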
